A study of Homo sapiens with 6 samples.

Results

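The genes described here are secreted growth factors of the VEGF and PDGF families, 3 of their receptors and the angiopoietin-like protein ANGPTL4, in IGR37, a human melanoma cell line. They were chosen by symbol: VEGFA, VEGFB, VEGFC, FLT1, PDGFA, PDGFB, PDGFC, PDGFRA, PDGFRB and ANGPTL4. These genes and the lists below were chosen with earlier results of these data known. Of these 10 genes 9 had a row among the 12558 genes of the authors' deposited table, and the expression of PDGFRB, which had none, was not analysed here. In all libraries the cells carried a transgene for beta-catenin (CTNNB1) with an SV40 nuclear localisation signal at its N-terminus, inserted with a piggyBac vector under G418 selection and switched by doxycycline. One group of 3 libraries was made after 24 h of doxycycline at 20 ng/ml, and the other 3 came from the same line without doxycycline. The labels do not say whether the line was 1 clone or whether libraries of one group came from independent cultures; p-values then reflect only the spread between these libraries, which may be technical.

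Cells release VEGF proteins to attract and sustain blood and lymph vessels. VEGF-A and VEGF-B bind the receptor tyrosine kinase FLT1 on endothelial cells, and VEGF-C acts mainly on lymphatic endothelium. PDGF proteins of the same cystine-knot superfamily recruit pericytes and fibroblasts through PDGFRA and PDGFRB. ANGPTL4 inhibits lipoprotein lipase, is induced by PPAR factors and by low oxygen, and affects the tightness of vessels. In melanoma, tumour cells are a source of VEGF-A, and the ligands act largely on the stroma.

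The table holds 1 comparison per gene and no value per library, and its header leaves out which group is on top of the fold change. Its signs are kept, and the 2 groups are called the positive side and the negative side: a positive log2 fold change means higher on the positive side. The induced gene CTNNB1 had a positive value, 3.89-fold (log2 1.96, edgeR FDR 1.24e-08) in the authors' deposited table, the sign that a doxycycline over no-doxycycline order would give. A 3' tag need not come from a transgene that lacks the gene's own 3' end. Group levels were rebuilt from the deposited averages and fold changes. This put the libraries at about 3.11 M reads each on the positive side and 5.53 M each on the negative side. Group sums of reads rebuilt in this way came out whole, to within 0.1, in 97.8% of 511 low values on the positive side and 99.2% of 250 on the negative side, where 20% would by chance. Levels below are these rebuilt group levels in CPM (counts scaled to library size), with the reads summed over 3 libraries and rounded, so that larger sums are estimates. The spread over single libraries enters only through the authors' F test.

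Of the 9 measured genes, 7 were lower on the positive side and 0 were higher at an edgeR FDR under 0.05 in the authors' deposited table; all 9 fold changes were negative, so 0 were higher at an unadjusted p under 0.05 too. Over all genes 26.4% were called lower and 24.5% higher. All 7 were also lower by at least 2-fold, as were 15.6% of all genes. All 3 PDGF ligands, 2 of 3 VEGF ligands, FLT1 and ANGPTL4 made up the 7, and VEGFB and PDGFRA were not called. VEGFC and FLT1 had a row only through reads on the negative side, so they could only be lower. Without these 2, 5 of 7 were called lower, all by at least 2-fold. The share of all genes with such genes left out was not computed. The median log2 fold change of the 9 was -5.88, against -0.01 over all genes, or -3.78 without VEGFC and FLT1, which had no reads on the positive side. Summed over the 9 genes, the level was 68.1 CPM on the positive side and 743 CPM on the negative side. Single genes made up most of each sum: VEGFB gave 45.4 CPM on the positive side and ANGPTL4 463 CPM on the negative side. Spike-in RNAs, synthetic transcripts added to the samples, had a median log2 fold change of 0.57; centred on it, all 9 values stayed negative and 8 of 9 were called lower, as were 52.3% of all genes. The other ways of calling left 6 to 7 of 9 lower: 7 centred on the median of all genes (26.0% of all genes), 7 with 4 denominator degrees of freedom (17.3%), 7 of 8 with an average log2 CPM of at least 1 (26.9%), 7 at an FDR under 0.01 (20.0%), and 6 with Bonferroni adjustment (7.13%) or with 4 degrees of freedom and 2 for genes without reads in 1 group (16.1%). Fewer cells that make a transcript and less of it per cell cannot be told apart in bulk RNA.

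**Figure D1:**
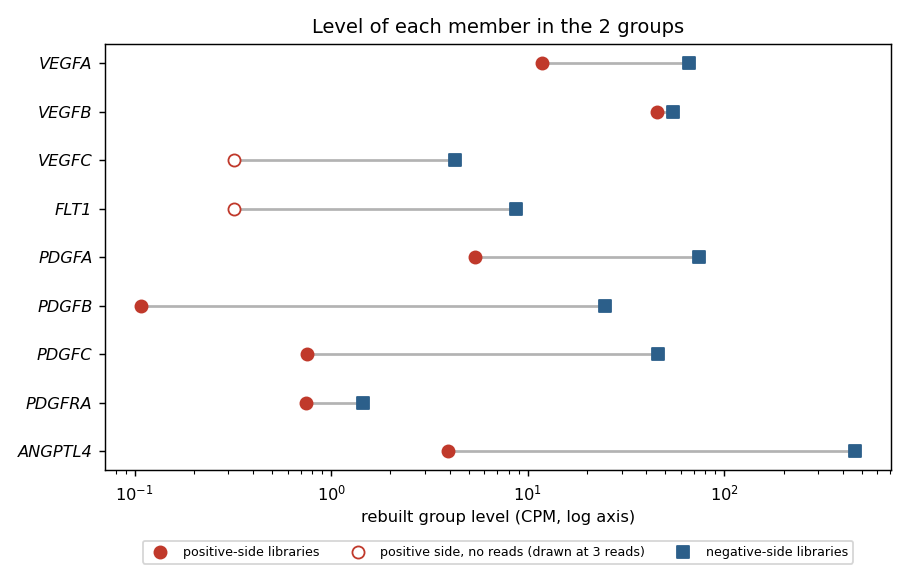
Rebuilt level of each gene in CPM, on a log axis, for the positive-side libraries (circles) and the negative-side libraries (squares), each a sum over 3 libraries with no error bar. Open circles mark VEGFC and FLT1, which had no reads on the positive side and are drawn at 3 reads; VEGFB and PDGFRA have the shortest lines between the 2 groups.

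VEGFA, the main driver of vessel growth, stood at 11.8 CPM (110 reads) on the positive side and at 65.9 CPM (1093 reads) on the negative side. In the authors' deposited table it was 5.58-fold lower, with a log2 fold change of -2.48 ± 0.20 (approximate SE, 95% interval -2.91 to -2.05) and an edgeR FDR of 1.54e-07. Of all genes, 6.60% had a lower log2 fold change. The gene spans 43770184 to 43786487 of chromosome 6, plus strand (hg38). GENCODE gives it 20 coding transcripts with 8 distinct 3' ends within 1.93 kb, so 3' tags do not separate its splice forms.

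VEGFB, a ligand of FLT1 with weak effects on vessel growth, was not called. Its level was 45.4 CPM (423 reads) on the positive side and 55.1 CPM (913 reads) on the negative side. The log2 fold change in the authors' deposited table was -0.28 ± 0.17 (approximate SE, 95% interval -0.65 to 0.09), with an edgeR FDR of 0.194. Centred on the spike-ins it was -0.85 with an adjusted p of 0.000658, so the call for VEGFB depends on the scaling. The gene spans 64234584 to 64239264 of chromosome 11, plus strand.

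VEGFC, the lymphatic growth factor, had 0 reads on the positive side and 4.27 CPM (71 reads) on the negative side. Taking 3 reads in the group as the limit that a count of 0 allows, it was at least 13.2-fold lower; the authors' deposited table gives an edgeR FDR of 5.06e-05. With 2 denominator degrees of freedom, which is what its own libraries leave, the adjusted p was 0.0539, and with Bonferroni adjustment it was 0.0919. The gene is on the minus strand of chromosome 4 at 176683538 to 176792922.

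FLT1, the receptor for VEGF-A and VEGF-B, also made as a soluble form that traps them, had 0 reads on the positive side and 8.74 CPM (145 reads) on the negative side. It was at least 27.1-fold lower by the same limit; the authors' deposited table gives an edgeR FDR of 6.02e-06. It ranked 10 from the most negative among the 12558 genes, although for a gene without reads in 1 group the deposited value is no measured fold. FLT1 lies on the minus strand of chromosome 13 at 28300346 to 28495145, and GENCODE gives its 4 coding transcripts 4 distinct 3' ends spread over 85.2 kb. Which of these ends the 145 reads came from is not in the table.

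All 3 PDGF ligands were lower. PDGFA stood at 5.37 CPM (50 reads) on the positive side and at 73.9 CPM (1226 reads) on the negative side. That is 13.7-fold lower in the authors' deposited table, a log2 fold change of -3.78 ± 0.28 (approximate SE, 95% interval -4.38 to -3.17) with an edgeR FDR of 6.30e-08. PDGF-A binds PDGFRA, and PDGF-B binds both PDGF receptors and is the main recruiter of pericytes. PDGFB had 1 read on the positive side (0.107 CPM) and 412 reads on the negative side (24.8 CPM). The ratio of these levels was 232-fold lower with a 95% exact counting interval of 41.3 to 9167, and the edgeR FDR in the authors' deposited table was 4.22e-08. The deposited fold, 182-fold lower, rests on that 1 read.

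PDGFC, a ligand of PDGFRA that is secreted in latent form and activated by proteolysis, had 0.754 CPM (7 reads) on the positive side and 46.1 CPM (764 reads) on the negative side. Its log2 fold change in the authors' deposited table was -5.88 ± 0.29 (approximate SE, 95% interval -6.49 to -5.27), or 58.9-fold lower, with an edgeR FDR of 7.06e-10. With 7 reads on the positive side, the ratio of levels, 61.3-fold lower, had a wider 95% exact counting interval, 29.6 to 153. PDGFA lies on the minus strand of chromosome 7 at 497258 to 520296, PDGFB on the minus strand of chromosome 22 at 39223359 to 39244982, and PDGFC on the minus strand of chromosome 4 at 156760454 to 156971799. The 3 ligands thus lie on 3 chromosomes.

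PDGFRA, the receptor for PDGF-A and PDGF-C, was near the lower end of detection in both groups, with 0.742 CPM (7 reads) on the positive side and 1.45 CPM (24 reads) on the negative side. Its log2 fold change in the authors' deposited table was -0.94 ± 0.71 (approximate SE, 95% interval -2.46 to 0.58), with an edgeR FDR of 0.288. A difference of the size seen for the PDGF ligands lies outside that interval, but lower values down to a log2 of -2.46 lie inside it. PDGFRA spans 54229280 to 54298245 of chromosome 4, plus strand, beside the melanocyte receptor KIT. KIT, whose start is 428 kb downstream, was higher by 5.16-fold in the authors' deposited table (edgeR FDR 7.84e-08; 53.5 CPM on the positive side and 10.3 CPM on the negative side). Of 8 measured genes of this stretch of 4q12, 4 were called higher and 0 lower, against 24.5% and 26.4% of all genes. The 4 were KIT, SCFD2 (1.78-fold), SRD5A3 (2.11-fold) and CLOCK (1.42-fold), in the authors' deposited table. Centred on the spike-ins, KIT alone of these 4 passed 0.05 and CLOCK turned negative; SRD5A3 and CLOCK also missed 0.05 with 4 denominator degrees of freedom (adjusted p of 0.0672 and 0.119). FIP1L1, EXOC1, TMEM165 and CHIC2 had log2 fold changes of 0.40, 0.19, -0.06 and -0.08 in the authors' deposited table, with edgeR FDRs of 0.0524, 0.429, 0.813 and 0.854.

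ANGPTL4 had the highest level of the 9 on the negative side, at 463 CPM (7671 reads), and 3.93 CPM (37 reads) on the positive side. In the authors' deposited table it was 117-fold lower, a log2 fold change of -6.87 ± 0.35 (approximate SE, 95% interval -7.61 to -6.13), with an edgeR FDR of 9.55e-10. It ranked 71 of the 12558 genes from the most negative. The gene spans 8363289 to 8374370 of chromosome 19, plus strand.

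**Figure D2:**
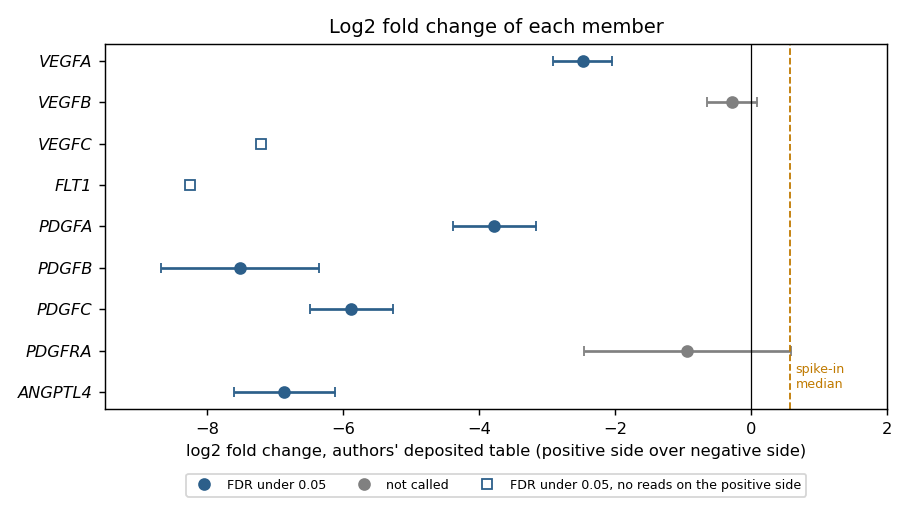
Log2 fold change of each gene in the authors' deposited table, positive side over negative side, with approximate 95% intervals from the fold change, F and the degrees of freedom. Open squares mark VEGFC and FLT1, which had no reads on the positive side and get no interval; the intervals of VEGFB and PDGFRA reach 0, and the dashed line is the spike-in median of 0.57.

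**Figure D3:**
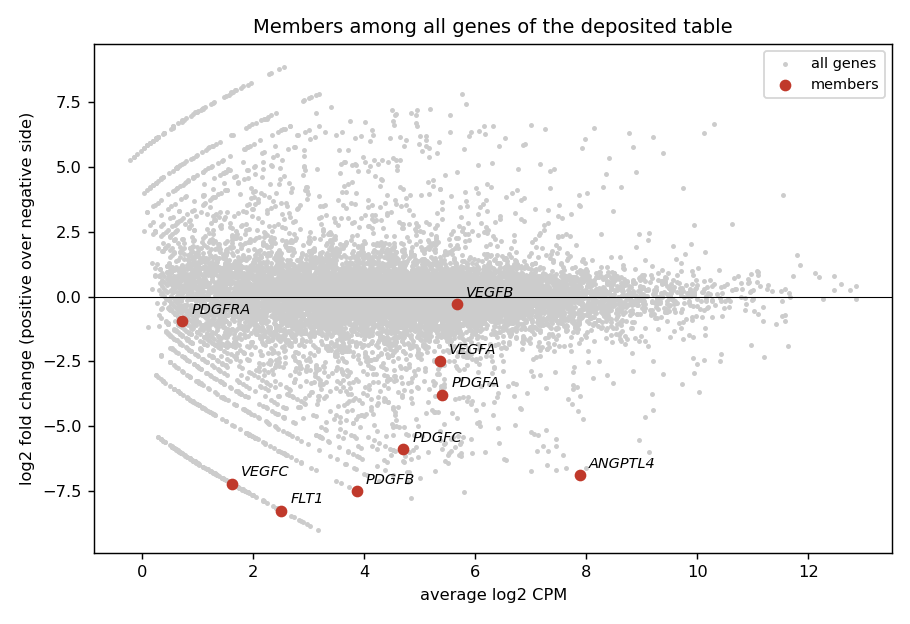
Average log2 CPM against log2 fold change for all 12558 genes (grey) and the 9 measured genes (red) of the authors' deposited table. VEGFC and FLT1 lie on the lowest arc of points, that of genes with no reads on the positive side, and ANGPTL4 lies at the lower edge of the cloud.

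The bases before the start site of ANGPTL4, FLT1 and VEGFC are printed because, of the genes with an entry in the RefSeq promoter table (build GRCh38.p14), FLT1 and VEGFC had 0 reads on the positive side and ANGPTL4 had the largest measured fold, and VEGFB is printed because it was not called. Each run holds the 250 bases before the RefSeq start, 5' to 3' on the gene's strand. For ANGPTL4, and by a few bases for FLT1, that start lies inside the GENCODE span given above, whose outermost start is farther upstream. Capitals mark matches, on either strand, to 6 short motifs: the core bound by HIF factors (ACGTG or GCGTG), the E-box bound by MITF (CACGTG or CATGTG, the first of which holds an ACGTG), the AP-1 site (TGANTCA), the cyclic AMP response element (TGACGTCA), the TCF/LEF site (CTTTGA) and the TATA box (TATAAA).
ANGPTL4, chr19:8363905-8364154, plus strand: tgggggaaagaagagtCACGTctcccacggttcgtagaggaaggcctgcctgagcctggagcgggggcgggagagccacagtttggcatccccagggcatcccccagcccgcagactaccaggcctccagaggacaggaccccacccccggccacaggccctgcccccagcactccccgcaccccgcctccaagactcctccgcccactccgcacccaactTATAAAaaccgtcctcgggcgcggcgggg
FLT1, chr13:28495129-28495378, minus strand: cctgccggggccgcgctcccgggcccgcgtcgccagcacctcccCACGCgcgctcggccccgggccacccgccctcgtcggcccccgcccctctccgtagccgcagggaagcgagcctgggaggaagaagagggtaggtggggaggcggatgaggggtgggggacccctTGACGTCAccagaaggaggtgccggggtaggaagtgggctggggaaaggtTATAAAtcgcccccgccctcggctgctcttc
VEGFC, chr4:176792923-176793172, minus strand: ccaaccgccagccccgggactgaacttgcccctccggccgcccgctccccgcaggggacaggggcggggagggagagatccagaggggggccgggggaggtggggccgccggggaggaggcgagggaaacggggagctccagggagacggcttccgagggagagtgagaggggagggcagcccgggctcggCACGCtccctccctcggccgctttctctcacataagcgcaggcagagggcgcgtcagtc
VEGFB, chr11:64234334-64234583, plus strand: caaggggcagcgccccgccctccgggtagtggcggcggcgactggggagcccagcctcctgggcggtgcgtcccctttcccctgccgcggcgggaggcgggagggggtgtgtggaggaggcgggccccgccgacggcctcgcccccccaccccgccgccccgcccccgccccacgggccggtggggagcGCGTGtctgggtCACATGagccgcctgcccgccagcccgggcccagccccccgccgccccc

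ANGPTL4 and FLT1 have a TATA box, 29 to 24 bases before the start in ANGPTL4 and 31 to 26 bases before it in FLT1. VEGFC, which like FLT1 had 0 reads on the positive side, has none, nor have VEGFB and the 4 windows of PDGFA. Of 35116 such windows 10.7% hold one. FLT1 also has the cyclic AMP response element, 81 to 74 bases before its start, as do 1.65% of windows. A HIF core was found in each of the 4 printed windows, VEGFB included, and in 43.2% of all windows. Of the 10 genes 7 had an entry, with 11 windows in all, of which 8 held a HIF core, among them 3 of 4 windows of PDGFA. The E-box appeared in VEGFB alone (15.2% of all windows), the AP-1 site in 1 window of PDGFRA (6.57%) and the TCF/LEF site in 1 window of PDGFA (11.2%). VEGFA, PDGFB and PDGFC had no entry. A match describes the letters only.

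The co-receptors of VEGF split in direction. NRP1, the neuropilin that binds VEGF-A, stood at 0.969 CPM (9 reads) on the positive side and at 64.0 CPM (1061 reads) on the negative side, 64.1-fold lower, a log2 value of -6.00 ± 0.29 with approximate SE (edgeR FDR 7.61e-10, the authors' deposited table). The ratio of its levels, 66.2-fold lower, had a 95% exact counting interval of 34.8 to 145. NRP2, which binds VEGF-C and class 3 semaphorins, went the other way, with 126 CPM (1177 reads) on the positive side and 6.85 CPM (114 reads) on the negative side. It was higher by 18.4-fold, a log2 value of 4.20 ± 0.18 with approximate SE (edgeR FDR 2.35e-10, the authors' deposited table). The placental growth factor PGF (22 reads on the positive side and 57 on the negative side) and PDGFD (22 on the positive side and 55 on the negative side) had log2 fold changes of -0.54 and -0.50 in the authors' deposited table, with edgeR FDRs of 0.32 and 0.368; centred on the spike-ins their adjusted p were 0.0375 and 0.0475. Of 8 other VEGF and PDGF genes listed, 4 had a row, 1 higher and 1 lower, against 24.5% and 26.4% of all genes. VEGFD, KDR, FLT4 and PDGFRL were not analysed here.

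Angiopoietin 1 (ANGPT1), which steadies vessels through the receptor TEK, had 1 read on the positive side (0.108 CPM) and 151 reads on the negative side (9.12 CPM). The ratio was 84.9-fold lower, with a 95% exact counting interval of 15.0 to 3374, and the edgeR FDR in the authors' deposited table was 2.14e-06. The lipase that ANGPTL4 inhibits, LPL, was higher by 4.01-fold in the authors' deposited table (edgeR FDR 0.00128), with 7.45 CPM (69 reads) on the positive side and 1.84 CPM (30 reads) on the negative side. LMF1, which folds lipases, was 1.96-fold and ANGPTL2 1.62-fold higher in the authors' deposited table (edgeR FDRs 0.016 and 0.0296); neither passed 0.05 when centred on the spike-ins or with 4 denominator degrees of freedom. Of 15 genes listed with the angiopoietins 4 had a row, 3 called higher and 1 lower, against 24.5% and 26.4% of all genes.

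Other secreted angiogenic factors were mostly lower. Of 15 measured, 12 were called lower and 1 higher, against 26.4% and 24.5% of all genes. Their median log2 fold change was -2.33, against -0.01 over all genes. CCN1, a matrix-bound inducer of vessel growth, was lower by 21.1-fold in the authors' deposited table (edgeR FDR 1.55e-09; 20.5 CPM on the positive side and 433 CPM on the negative side). The apelin peptide gene APLN was 13.4-fold lower and GAS6, the ligand of AXL, 4.70-fold lower in the authors' deposited table, with edgeR FDRs of 9.27e-07 and 3.64e-06. FGF2, basic fibroblast growth factor, had 3 reads on the positive side and 277 on the negative side, a ratio 51.9-fold lower with a 95% exact counting interval of 17.6 to 253. CXCL1, the 1 called higher, was named after its values were seen; it was higher by 1.72-fold in the authors' deposited table (edgeR FDR 0.0376) and missed the threshold after spike-in centring (adjusted p = 0.539).

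Angiogenesis inhibitors and growth factor binders did not share a direction, with 6 called lower and 5 higher of 13 measured (median -0.60). The shares over all genes were 26.4% lower and 24.5% higher. The 4 with the smallest p-values were lower: COL18A1, the source of endostatin, 14.4-fold, TIMP3, which blocks VEGF-A at its receptor KDR, 5.15-fold, SPARC, which binds PDGF and VEGF, 5.03-fold, and the semaphorin SEMA3A, a neuropilin ligand, 23.4-fold, in the authors' deposited table. Their edgeR FDRs ran from 1.01e-09 for COL18A1 to 2.25e-08 for SEMA3A. SPARC stood at 778 CPM on the positive side and at 3912 CPM on the negative side.

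Of the proteins that activate VEGF-C, ADAMTS3, the protease that cleaves pro-VEGF-C, had 3.78 CPM (35 reads) on the positive side and 0 reads on the negative side, at least 20.9-fold higher; the authors' deposited table gives an edgeR FDR of 6.46e-05. Its adjusted p was 0.123 with Bonferroni adjustment and 0.0559 with 2 denominator degrees of freedom, which ends the call. CCBE1, its cofactor, was lower by 9.32-fold in the authors' deposited table (edgeR FDR 1.06e-05), with 2.02 CPM (19 reads) on the positive side and 19.1 CPM (317 reads) on the negative side. PLAT, tissue plasminogen activator, which activates PDGF-C, was 2.30-fold higher and the proprotein convertase PCSK6 3.48-fold higher in the authors' deposited table, with edgeR FDRs of 0.00031 and 0.00483; with 4 denominator degrees of freedom the adjusted p of PCSK6 was 0.0525. In all, 3 of 7 measured proteases and cofactors were called higher and 2 lower, against 24.5% and 26.4% of all genes.

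Among HIF factors and oxygen sensors 3 were called lower and 2 higher of 8 measured, against 26.4% and 24.5% of all genes. The oxygen-regulated subunits HIF1A and EPAS1 were 3.81-fold and 2.51-fold lower in the authors' deposited table (edgeR FDRs 5.52e-08 and 3.90e-05). HIF1AN, which blocks HIF activity when oxygen is present, was 1.95-fold lower and the HIF partner ARNT2 3.46-fold higher in the authors' deposited table (edgeR FDRs 5.20e-05 and 9.15e-07). Hypoxia-induced genes other than VEGFA and ANGPTL4 had 12 lower and 1 higher of 24 measured, with a median of -0.43. The shares over all genes were 26.4% lower and 24.5% higher. Centred on the spike-ins, 52.3% of all genes were called lower. Under that centring BNIP3L, PGK1, PFKFB4, ALDOA, PDK1, ERO1A and BHLHE40 joined the 12 hypoxia-induced genes called lower. The stanniocalcin gene STC2 was lower by 35.3-fold, NDRG1 by 10.2-fold and SLC2A1, a glucose carrier, by 3.53-fold, and the MYC antagonist MXI1 was higher by 4.90-fold in the authors' deposited table, each with an edgeR FDR of 9.69e-07 or smaller.

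Genes of the PPAR axis, which induces ANGPTL4, went both ways, with 5 higher and 4 lower of 11 measured (median 0.05). The shares over all genes were 24.5% higher and 26.4% lower. CPT1A, the entry enzyme of mitochondrial fatty acid oxidation, was 4.11-fold and ACAA2 6.32-fold lower, and the fatty acid carrier CD36 was 13.2-fold and HADHA 2.12-fold higher, all in the authors' deposited table, with edgeR FDRs from 1.41e-07 for CPT1A to 9.00e-05 for ACAA2. PPARG, named after its values were seen, had 0 reads on the positive side and 31 on the negative side, at least 5.80-fold lower. Its edgeR FDR in the authors' deposited table was 0.000917, and its adjusted p with 2 denominator degrees of freedom was 0.0841. PPARA and PPARD went the other way, 2.07-fold and 1.60-fold higher in the authors' deposited table (edgeR FDRs 0.000226 and 0.033). Centred on the spike-ins, their adjusted p were 0.0312 and 0.726. Of 20 measured signal proteins recruited by the receptors, 4 were called higher and 4 lower (median -0.23), against 24.5% and 26.4% of all genes. PIK3CB was 2.79-fold, NCK2 2.65-fold and PIK3R1 1.81-fold higher and STAT3 2.27-fold lower in the authors' deposited table, each with an edgeR FDR of 0.000277 or smaller; PIK3R1 missed the threshold after spike-in centring (adjusted p = 0.101).

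**Figure D4:**
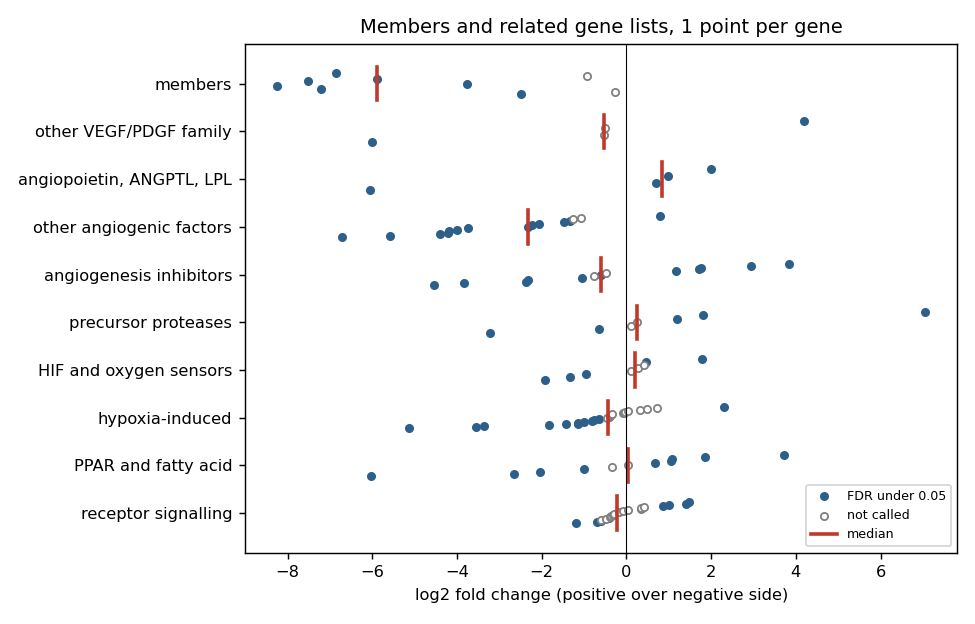
Log2 fold change in the authors' deposited table, positive side over negative side, for each measured gene of the VEGF, PDGF and ANGPTL4 set (top row) and of 9 related lists; filled points passed an FDR of 0.05, open points did not, and red bars are medians. The 9 values of the top row are all below 0, and 2 of them were not called. The other lists hold points on both sides of 0, although of 15 other angiogenic factors 12 were called lower and 1 higher.

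Genes around the 9 are given for comparison, and the shares over all genes were 24.5% called higher and 26.4% called lower. Over 500 kb on either side of its start site, VEGFA had 18 measured neighbours, with a median log2 fold change of 0.20, 5 called higher and 2 lower. ANGPTL4 had 17, with a median of 0.53, 5 higher and 2 lower, and FLT1 had 4, with a median of 1.05, 3 higher and 0 lower. PDGFB had 16 neighbours with a median of -0.12, 3 higher and 7 lower, and PDGFA had 8 with a median of -0.12, 1 higher and 3 lower. VEGFB, not called itself, had 22 neighbours, of which 12 were called lower and 1 higher, with a median of -0.54. VEGFC had 1 measured neighbour (not called), PDGFRA had 2 (1 higher) and PDGFC 0.

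**Figure D5:**
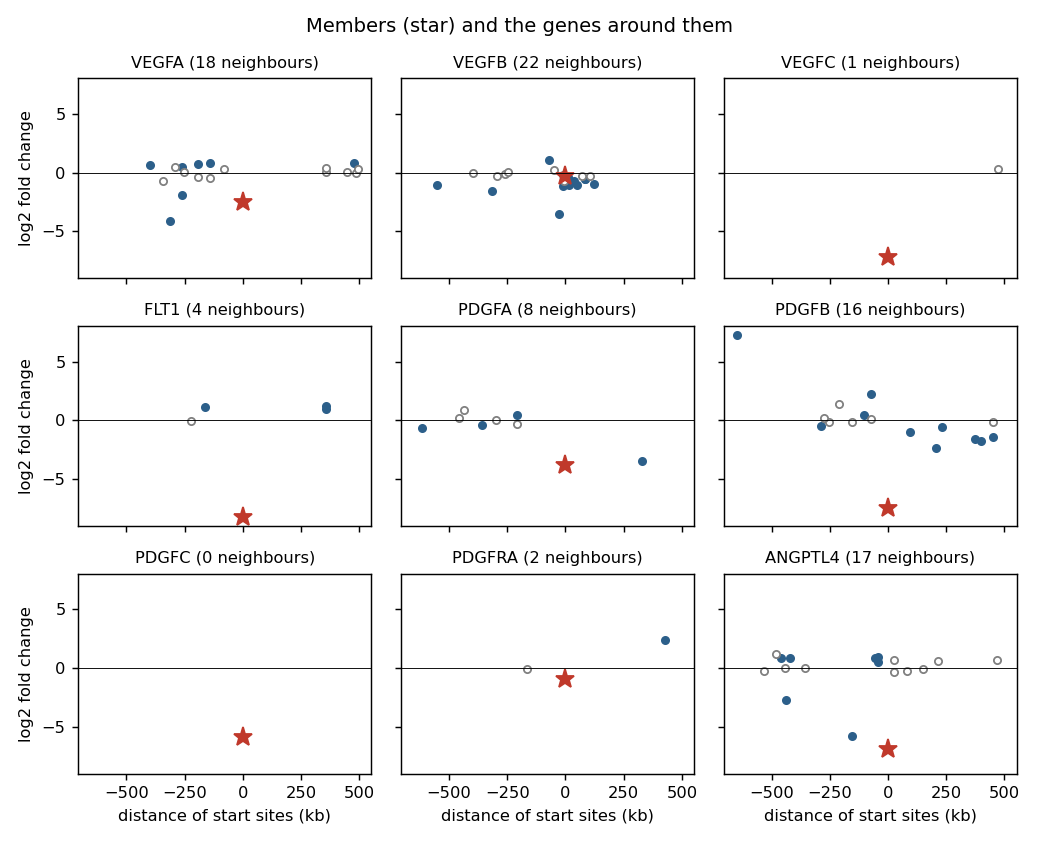
Log2 fold change of each measured gene of the set (star) and of the genes that overlap 500 kb on either side of its start, by the distance between start sites in kb (positive downstream); filled points passed an FDR of 0.05. PDGFC has no measured neighbour in this window. The stars of ANGPTL4, FLT1, PDGFA, PDGFB, VEGFC (1 neighbour) and PDGFRA (2 neighbours, itself not called) lie below all of their neighbours.

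Cell type markers also differed between the groups, where 24.5% of all genes were called higher and 26.4% lower. All 8 melanocytic markers had a row and were called higher, with a summed level of 7709 CPM on the positive side and 117 CPM on the negative side. Of 6 measured fibroblast markers 5 were called lower and LUM higher, with a summed level of 15.9 CPM on the positive side and 386 CPM on the negative side; DCN and THY1 were not analysed here. Mural cell markers had 3 lower and 2 higher of 7 measured, with sums of 310 CPM on the positive side and 195 CPM on the negative side, and ANPEP and ACTA2 had 0 reads on the positive side. Of 12 endothelial markers 3 had a row, with sums of 7.63 CPM on the positive side and 13.2 CPM on the negative side; PECAM1 and CDH5 were called lower and EGFL7 was not called. The part of these differences in the values of the VEGF and PDGF genes was not tested.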

How the data were processed

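RNA was taken from 6 libraries in 2 groups of 3, each built, per the labels' protocols, from 500 ng RNA by a method that tags transcript 3' ends. Per the submitters' processing notes, the authors used STAR and edgeR on hg38; no version, annotation or filter is given in the sources used here. The authors' columns hold, per the file headers, a log2 fold change, a linear fold (ratio), an average log2 CPM, an F statistic (score), a p-value and an FDR (a Benjamini-Hochberg adjusted p-value over all 12617 rows, 59 of them spike-ins). A call means that FDR under 0.05, from the authors' edgeR F test.

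F and p together gave 14.03 denominator degrees of freedom in most rows and 12.03 in 206 rows, the loss of 2 that a group without reads causes. SE is |log2 fold change| / sqrt(F), an approximation. Depth is not in the table. It was estimated from those 206 rows on the assumption that the authors ran edgeR with its default prior counts (0.125 and 2); the fit left an RMS residual of 0.00666 on the log2 scale. Intervals on reads (95%, exact binomial) and the limit for 0 reads (3 in the group) cover counting error only. Steps were tested on simulated data.

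Gene positions are from GENCODE 44. Python 3.11.15, numpy 2.4.6, pandas 2.3.3, scipy 1.17.1 and matplotlib 3.10.9 were used. Members and lists were chosen with earlier results of these data known; no set test was run. From each list the 4 genes with the smallest p-values are named, and all of 4q12. Alternatives were other centrings, degrees of freedom, filters and adjustments.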

Additional observations from a re-analysis of the deposited data

How the results depend on the processing

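Of the 9 measured genes, 7 were called as deposited, 8 centred on the spike-ins and 7 centred on the median of all genes, with 4 denominator degrees of freedom, with an average log2 CPM of at least 1 or with an FDR under 0.01. Bonferroni adjustment called 6, without VEGFC. Chosen after seeing the data, 2 degrees of freedom for genes without reads in 1 group also left 6, without VEGFC, and leaving such genes out left 5 of 7. The share of all genes called with such genes left out was not computed. The median log2 fold change of the 9, -5.88, was -6.45 centred on the spike-ins and -6.37 with the filter on low levels, which removes PDGFRA. Of 114 measured list genes, 74 were called as deposited, 45 lower and 29 higher, against 26.4% and 24.5% of all genes. Bonferroni adjustment called 27 of them, 19 lower and 8 higher, with 7.13% of all genes called lower. Centred on the spike-ins, FIP1L1, CLOCK and EXOC1 changed sign, to log2 values of -0.17, -0.065 and -0.38. Over all genes, 3080 were called higher and 3318 lower (48.1% higher); centred on the spike-ins these were 1423 and 6564 (17.8% higher), with 4 degrees of freedom 1965 and 2175, and with Bonferroni adjustment 747 and 896. No paired analysis was possible because the table has no values per library; leaving out replicates and DESeq2 were not run for the same reason. Of 55 values of single genes, 16 lost their call with Bonferroni adjustment and 5 with 4 degrees of freedom. The 55 include genes that were not called as deposited, such as VEGFB and PDGFRA. Centred on the spike-ins, 5 lost their call without a change of sign and 4 gained a call. Depth limits PDGFRA (7 reads on the positive side and 24 on the negative side), VEGFC and FLT1 (0 on the positive side), PDGFB (1) and PDGFC (7).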
